A study of Mus musculus with 12 samples.

Results

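Of the 55092 features measured by RNA-Seq in the mouse abdominal aorta, 9 genes that control blood clotting and the activation of plasminogen are described here. They were taken as a list of names, set with earlier results of these data known, and all 9 were found in the table by their symbols: Plau, Plat, Plaur, Serpine2, F3, Thbd, Procr, Tfpi and Tfpi2. Their transcripts were measured in 12 male mice, in 4 groups of 3. CCN2fl/fl mice, which carry the floxed gene and no Cre, were infused with saline (CFS) or with angiotensin II (Ang II; CFA). CCN2SMCΔ mice, in which the same floxed gene is recombined in smooth muscle cells (SMCs) by Cre-ERT2 under the Myh11 promoter, were infused with saline (CSS) or with Ang II (CSA). All mice, controls included, received 5 doses of tamoxifen from 8 weeks of age and, after 2 weeks, carried pumps for 7 days, which delivered 500 ng/kg/min of Ang II in CFA and CSA. Because the controls lack Cre, the effect of the recombinase and that of the deletion cannot be told apart.

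Plasminogen, a precursor made in the liver, is cut to plasmin by 2 serine proteases, urokinase (encoded by Plau) and tissue plasminogen activator (Plat), and plasmin dissolves fibrin and can degrade matrix proteins. Urokinase is held at the cell surface by its receptor (Plaur), and protease nexin-1 (Serpine2), a serpin made by SMCs among other cells, inhibits thrombin, urokinase and plasmin. Clotting starts when tissue factor (F3), found on adventitial fibroblasts, SMCs and activated monocytes, meets factor VII of the blood. Thrombomodulin (Thbd) and the endothelial protein C receptor (Procr) sit mainly on endothelium and turn thrombin toward activation of protein C, an anticoagulant. Tissue factor pathway inhibitor (Tfpi) blocks tissue factor with factor VII and factor X through its Kunitz domains, and the related Tfpi2 is a secreted inhibitor of plasmin and other serine proteases.

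Each mouse gave 1 library of poly(A) RNA, with 14558580 to 23107811 fragments as recovered from the table, and values are FPKM, fragment counts scaled to the exon length of the gene and carrying a scaling between libraries under which their median log ratios are equal. The targeted transcript, Ccn2, stood at 254.9 to 398.6 FPKM in CSA against 563.5 to 1105 in CFA (log2 fold change -1.41, limma adjusted p = 0.00622), and at 435.6 to 639.9 in CSS against 480.1 to 1108 in CFS, where the groups overlapped. CSA mouse 03 lay 1.2 to 1.21 (root mean square log2 difference) from the other CSA mice, which were 0.505 apart, so values without it are given where they change a call. The library of CSA mouse 03 was also the smallest, with 14558580 fragments. Of the marker lists, compared between CSA and CFA at both thresholds used below, those of smooth muscle (8 of 8) and erythroid cells (3 of 3) fell, and 3 of 8 fibroblast, 2 of 5 adipocyte and 1 of 2 tested hepatocyte markers fell. Markers of macrophages (8 of 10), monocytes (5 of 5), neutrophils (9 of 9 tested), T cells (6 of 6) and B cells (2 of 3 tested) rose. In the endothelial list 1 rose and 2 fell of 10. No tested marker was called for platelets and megakaryocytes (6 tested), lymphatic endothelium (2), skeletal muscle (4), Schwann cells (4) or mast cells (4), and no mesothelial marker reached the level needed for a test. In whole tissue, fewer cells of a type and less RNA per cell cannot be told apart.

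The level of each gene is per length, so that genes can be ranked within a group. In CFS the mean level was highest for Serpine2 (92.8 ± 9.24 FPKM, SD, n = 3), F3 (72.6 ± 28.9) and Thbd (46.5 ± 5.09). Plat (12.2 ± 0.688), Procr (11.1 ± 5.17), Plau (8.51 ± 1.19), Tfpi (4.58 ± 0.94) and Plaur (4.31 ± 0.109) were lower, and Tfpi2 (0.707 ± 0.307) was lowest. In CSA the mean levels lay closer together, from 42.3 ± 10.7 FPKM for F3 and 34.2 ± 5 for Serpine2, through 24.4 ± 6.2 for Plaur and 22.9 ± 5.77 for Plau, down to 8.23 ± 3.27 for Tfpi and 7.475 ± 2.17 for Tfpi2 (SD, n = 3 each).

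**Figure D1:**
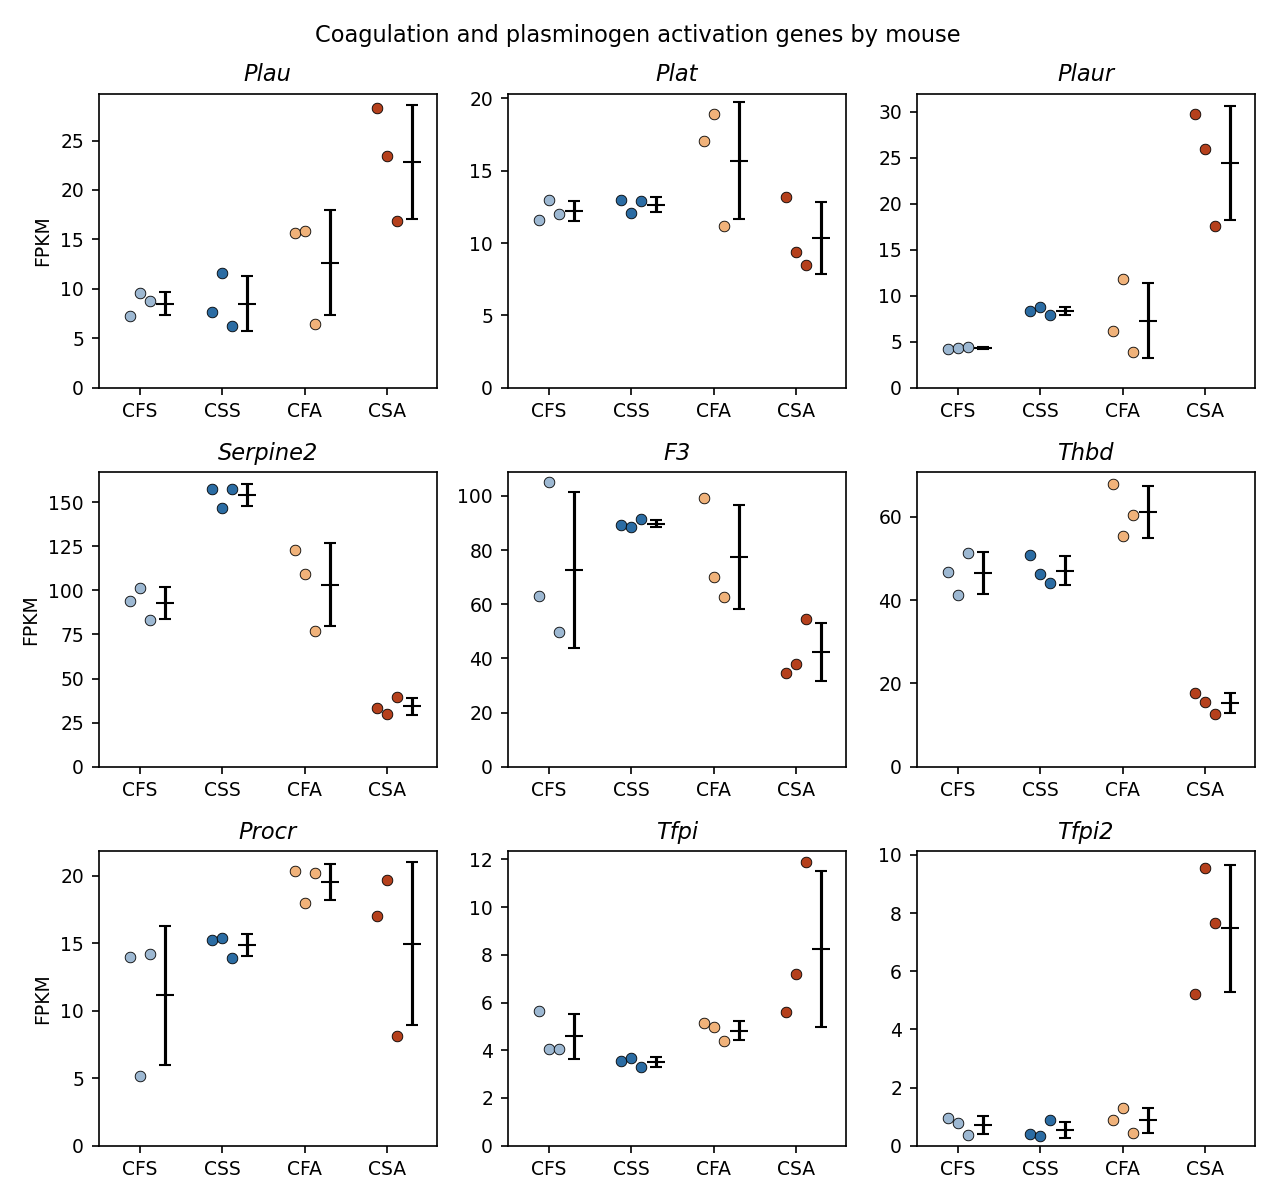
FPKM of each gene in each of the 12 mice (points), with the mean and SD of the 3 mice of a group beside them (black bar), on linear axes from 0; CFS and CSS are the saline groups of CCN2fl/fl and CCN2SMCΔ mice, and CFA and CSA their Ang II groups. In CSA the Plau, Plaur, Tfpi and Tfpi2 values lie above, and the Serpine2, F3 and Thbd values below, every CFA value.

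Under Ang II, the urokinase receptor Plaur and the inhibitor Tfpi2 were higher in CSA than in CFA, and the serpin Serpine2 and the thrombin receptor Thbd were lower. These 4 of the 9 genes, 2 in each direction, passed both thresholds, an adjusted p under 0.05 by limma and a log2 fold change beyond 1.5 in either direction. Tfpi2 entered the test through the CSA libraries, where it was high, so no conclusion is drawn from its call or the upward counts. The background is 17.2% of the 14676 genes tested, 8.95% up and 8.27% down. Plat, F3 and Tfpi passed the adjusted p but not the fold limit. At any fold, 3 of the 9 genes passed the adjusted p upward and 4 downward (background 40.7%, 19.5% up and 21.2% down). Plau and Procr passed neither. The median log2 fold change of the 9 genes was -0.47, against -0.04 over all tested genes. The groups did not overlap for 4 genes that were higher in CSA (background 23.4%) and 3 that were lower (background 25.1%).

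Of these genes, 6 had an entry among the RefSeq promoter windows of build GRCm38.p6, with 9 windows in all. The 250 bases before the start site are shown for the genes that were called and had an entry, and for F3 beside them, because they moved in opposite directions. Capitals mark AP-1 (TGANTCA) and GC box (GGGCGG) matches, on either strand.
Plaur, chr7:24462233-24462482, plus strand: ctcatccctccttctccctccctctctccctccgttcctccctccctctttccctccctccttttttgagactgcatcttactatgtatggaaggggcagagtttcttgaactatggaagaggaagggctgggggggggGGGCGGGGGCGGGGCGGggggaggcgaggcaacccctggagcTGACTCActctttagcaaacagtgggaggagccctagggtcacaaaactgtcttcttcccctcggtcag
Tfpi2, chr6:3968376-3968625, minus strand: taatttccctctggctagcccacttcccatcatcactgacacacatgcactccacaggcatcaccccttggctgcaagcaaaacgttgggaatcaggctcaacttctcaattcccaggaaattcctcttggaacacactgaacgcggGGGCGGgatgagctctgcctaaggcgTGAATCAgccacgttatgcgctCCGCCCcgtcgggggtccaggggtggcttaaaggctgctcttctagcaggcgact
Serpine2, chr1:79858666-79858915, minus strand: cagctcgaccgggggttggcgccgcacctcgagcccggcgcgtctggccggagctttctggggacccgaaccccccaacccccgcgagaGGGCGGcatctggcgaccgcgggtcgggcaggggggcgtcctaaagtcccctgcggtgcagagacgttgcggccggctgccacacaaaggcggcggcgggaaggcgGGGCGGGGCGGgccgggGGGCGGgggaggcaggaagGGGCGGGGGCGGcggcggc
F3, chr3:121723287-121723536, plus strand: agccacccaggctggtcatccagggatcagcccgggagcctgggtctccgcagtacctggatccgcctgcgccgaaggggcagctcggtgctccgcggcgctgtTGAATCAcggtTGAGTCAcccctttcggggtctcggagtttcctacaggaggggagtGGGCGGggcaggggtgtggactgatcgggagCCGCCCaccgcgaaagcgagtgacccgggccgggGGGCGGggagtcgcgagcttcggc
The Plaur and Tfpi2 windows each held 1 AP-1 match, beginning 69 and 77 bases before the start site. The F3 window held 2, at 146 and 135 bases, and the Procr window 1, at 154 bases. No AP-1 match lay in the Serpine2 window, which held 6 GC boxes, adjoining copies counted separately, or in the Tfpi windows, and the 2 other Tfpi2 windows, at upstream start sites, held none of the motifs searched. Of 32817 windows of this length, 6.75% held the AP-1 letters and 32.7% the GC box. The TATA box (TATAAA, 12.4% of windows) was found in 1 Tfpi window only, and the NF-kB (7.25%) and CArG (1.47%) motifs in none of the 9 windows. A match is a description of the letters and not a site of binding.

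Plau (ENSMUSG00000021822, GRCm38 chromosome 14, 20836660 to 20843385, plus strand) stood at 7.22, 9.58 and 8.74 FPKM in the CFS mice, 7.64, 11.65 and 6.23 in CSS, 15.6, 15.85 and 6.48 in CFA, and 28.3, 23.4 and 16.8 in CSA. Every CSA value was above every other, and CFA mouse 74 lay among the saline mice. The difference of CSA from CFA was 0.93 on the log2 scale (limma adjusted p = 0.0557, standard error, SE, 0.35), so that the difference did not pass the threshold. It was 0.50 without CFA mouse 74 (adjusted p = 0.202), and the adjusted p was 0.0469 without CFA mouse 71, 0.0402 without CFA mouse 72 and 0.0351 without CSA mouse 03. It was also under 0.05 with array weights (0.0243), fragment totals (0.0267) and a pseudocount of 1 (0.0496), which makes 6 of 20 alternatives. Against CSS, the Plau level in CSA was higher by 1.43 on the log2 scale (adjusted p = 0.00615), short of the fold limit, and past it without CSA mouse 03 (1.64) or CSS mouse 55 (1.68), with array weights (1.61) and when scaled to recovered fragment totals (1.61).

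Plat (ENSMUSG00000031538, chromosome 8, 22757727 to 22782844, plus strand), the other activator, stood at 11.6, 12.9 and 12.01 FPKM in CFS, 12.98, 12.1 and 12.9 in CSS, 17.0, 18.9 and 11.1 in CFA, and 13.2, 9.36 and 8.5 in CSA. Adjacent groups in the order CSA, CFS, CSS, CFA overlapped, and so did CSA and CFA. The log2 difference of CSA from CFA was -0.59 (limma adjusted p = 0.0412, SE 0.21). The adjusted p was 0.0539 to 0.0576 with any 1 of the 6 saline mice left out, 0.128 and 0.144 in the absence of CFA mice 71 and 72, and 0.106 and 0.0955 in the absence of CSA mice 02 and 03. With CFA mouse 74 left out it was 0.00594. It was also above 0.05 with fragment totals (0.098), in the fit of the 2 groups alone (0.1585), without the filter (0.0729) and without the trend and robust settings (0.0516), and under 0.05 in 6 of 20 alternatives. Against CSS, the Plat difference was -0.31 (95% interval -0.77 to 0.14).

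Plaur (ENSMUSG00000046223, chromosome 7, 24462484 to 24475968, plus strand) had 4.22, 4.29 and 4.43 FPKM in CFS, 8.35, 8.74 and 7.9 in CSS, 6.19, 11.8 and 3.88 in CFA, and 29.7, 25.9 and 17.6 in CSA. The CSA mice were above all others. The saline groups did not overlap either, and CFA spanned both of them. Plaur rose in CSA against CFA by 1.84 on the log2 scale, a 3.59-fold difference (limma adjusted p = 9.85e-04, SE 0.33), and by 1.51 against CSS (adjusted p = 0.00292). Without CFA mouse 74 the first value was 1.47, under the fold limit. Without CSS mouse 56 (1.47), CSA mouse 01 (1.35) or CSA mouse 02 (1.45), and with a pseudocount of 1 (1.42), the second was under it too.

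Serpine2 (ENSMUSG00000026249, chromosome 1, 79794197 to 79861180, minus strand) was highest in the CCN2SMCΔ mice under saline and lowest in the same genotype under Ang II, and neither group overlapped with any other. Its level was 157.6, 146.7 and 157.7 FPKM in CSS, 93.9, 101.4 and 83.1 in CFS, 122.8, 109.5 and 77.2 in CFA, and 33.2, 29.8 and 39.6 in CSA. Serpine2 fell in CSA against CFA by 1.57 on the log2 scale (limma adjusted p = 4.95e-05, SE 0.18) and against CSS by 2.18 (adjusted p = 3.97e-06). The CSA with CFA value was -1.43 without CFA mouse 71, -1.48 without CSA mouse 02 and -1.42 when scaled to recovered fragment totals, each short of the fold limit with an adjusted p of 3.92e-05 to 3.19e-04. Its transcript was covered by 5032 to 28443 fragments per library.

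F3 (ENSMUSG00000028128, chromosome 3, 121723537 to 121735048, plus strand) stood at 63.1, 105 and 49.6 FPKM in CFS, 89.3, 88.7 and 91.4 in CSS, 99.3, 70.2 and 62.7 in CFA, and 34.5, 37.8 and 54.5 in CSA. The 3 CSA values lay below every CFA and CSS value, while CFS mouse 70 lay within the CSA range. F3 was lower in CSA than in CFA with a log2 difference of -0.87 (limma adjusted p = 0.0264, SE 0.28), short of the fold limit, and lower than in CSS, at -1.11 (adjusted p = 0.00648). The first adjusted p was 0.105 with CFA mouse 71 left out, and 0.0821 and 0.0724 with CSA mice 01 and 02 left out in turn.

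Thbd (ENSMUSG00000074743, chromosome 2, 148404466 to 148408188, minus strand), a gene of 1 exon, had 46.8, 41.2 and 51.4 FPKM in CFS, 50.8, 46.3 and 44.2 in CSS, 67.9, 55.4 and 60.4 in CFA, and 17.6, 15.5 and 12.7 in CSA. The CSA mice were far below all others, the saline groups overlapped, and the CFA mice were above both. Thbd fell in CSA against CFA by 2.01 on the log2 scale (limma adjusted p = 3.19e-06, SE 0.15) and in CSA against CSS by 1.63 (adjusted p = 7.68e-06). The first value lay between -2.11 and -1.85 over 20 alternatives and passed both thresholds in each, while the second was -1.45, under the fold limit, with fragment totals.

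Procr (ENSMUSG00000027611, chromosome 2, 155751117 to 155755471, plus strand), which acts with thrombomodulin, gave no call. Its level was 14.0, 5.16 and 14.2 FPKM in CFS, 15.3, 15.4 and 13.9 in CSS, 20.4, 18.0 and 20.2 in CFA, and 17.0, 19.7 and 8.16 in CSA. CSA mice 01 and 02 lay near the CFA mice, and CSA mouse 03 and CFS mouse 69 were low. The CSA with CFA log2 difference was -0.47 (95% interval -1.33 to 0.39, limma adjusted p = 0.359), and it was -0.088 without CSA mouse 03 and -0.11 with array weights. An interval of this width neither shows a change nor excludes a 2-fold fall.

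Beside the endothelial genes, the summed level of the 10 endothelial markers was 240.4, 206.1 and 182.4 FPKM in CSA, 387.2, 271.3 and 515 in CFA, 471.2, 149.5 and 474.9 in CFS, and 398.5 to 513.1 in CSS. None of the 10 was at 0 in any group, and their log2 fold changes in CSA against CFA ran from -1.89 (Tek) to 1.56 (Emcn), with a median of -0.64. In CFS mouse 69 the endothelial sum was below that of every CSA mouse, Procr was the lowest of the 12 values, and Thbd, at 41.2 FPKM, was above the highest CSA value of 17.6. This is 1 mouse, and the part of endothelial cell content in the Thbd and Procr values was not tested.

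Tfpi (ENSMUSG00000027082, chromosome 2, 84432855 to 84476775, minus strand) measured 5.66, 4.04 and 4.03 FPKM in CFS, 3.54, 3.68 and 3.28 in CSS, 5.13, 4.96 and 4.39 in CFA, and 5.62, 7.18 and 11.9 in CSA. The CSA mice were above the CFA mice, with CSA mouse 03 highest, and the CSS mice were below all others. The CSA with CFA log2 difference was 0.69 (limma adjusted p = 0.0401, SE 0.24), and 0.39 without CSA mouse 03 (adjusted p = 0.0784). The adjusted p also lay above 0.05 without CFS mouse 70 (0.0504), any 1 of the CSS mice (0.0546 to 0.0559), any 1 of the CFA mice (0.0723 to 0.117) or CSA mouse 02 (0.0578), and without the filter (0.072) or in the fit of the 2 groups alone (0.1245). Against CSS, Tfpi was higher in CSA by 1.14 (adjusted p = 0.00252), short of the fold limit.

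Tfpi2 (ENSMUSG00000029664, chromosome 6, 3962595 to 3988919, minus strand) was near the lower limit of the test in 3 groups, with 0.96, 0.796 and 0.365 FPKM in CFS, 0.4, 0.34 and 0.868 in CSS, and 0.893, 1.29 and 0.432 in CFA, and it stood at 5.22, 9.55 and 7.66 in CSA. The CSA mice were above all others, and the other groups overlapped. In fragments, the CSA libraries held 185 to 354 and the other libraries 11 to 48. Tfpi2 rose in CSA against CFA by 3.03 on the log2 scale, 8.14-fold (limma adjusted p = 3.49e-04, SE 0.46), and against CSS by 3.62 (adjusted p = 7.91e-05). With a pseudocount of 1 the first value was 2.17. Tfpi2 entered the test, which needs 1 FPKM or more in 3 or more libraries, through its 3 CSA libraries and CFA mouse 72. It would not have been tested on the other groups alone, so no conclusion is drawn from its calls. The other 8 genes reached that level in all 12 libraries.

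**Figure D2:**
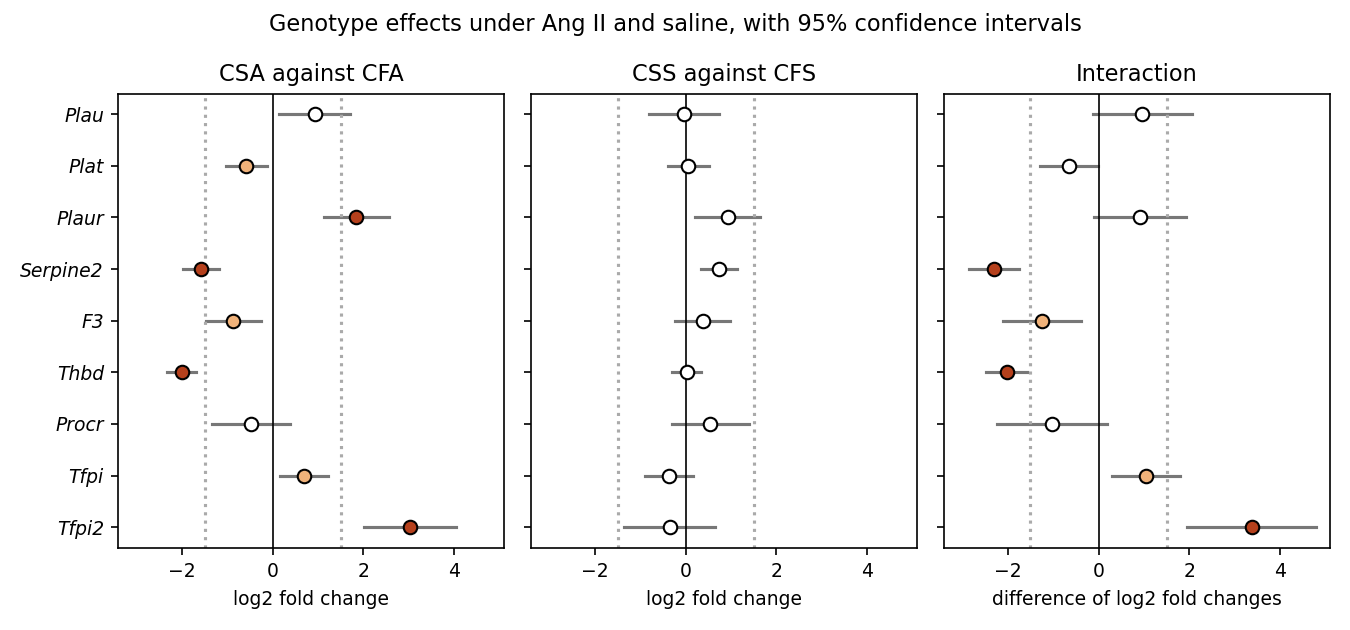
Log2 fold change of log2(FPKM + 0.1) for each gene (points) with its 95% confidence interval from limma (lines), for CSA against CFA (left), CSS against CFS (middle), and the first minus the second (right). Dark points passed both thresholds, light points the adjusted p only and open points neither, and dotted lines mark the fold limit of 1.5. Plaur, Serpine2, Thbd and Tfpi2 are dark on the left, none is filled in the middle, and Serpine2, Thbd and Tfpi2 are dark on the right. Tfpi2 was tested through the CSA libraries, where it was high.

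Without Ang II, the question is whether the genotype alone changes these genes, and none of the 9 passed in CSS against CFS by limma (background 0.0136%), with 2 at an unadjusted p under 0.05 (background 6.3%). Both were genes whose values did not overlap, and both were higher in CSS. Plaur, the urokinase receptor, differed by 0.93 on the log2 scale (adjusted p = 0.618, SE 0.33) and Serpine2 by 0.73 (adjusted p = 0.339, SE 0.18). In the fit of these 2 groups alone, the adjusted p was 0.0158 for Plaur and 0.0378 for Serpine2, and with array weights it was 0.069 and 0.0301. Groups that do not overlap were found upward in 11.1% of tested genes and downward in 9.31%, and among the 9 genes in 2 upward and, for Tfpi (log2 fold change -0.36), 1 downward. Macrophage markers in CSS summed to 329.8 to 400.5 FPKM against 306.7 to 363.3 in CFS, and smooth muscle markers to 7706 to 8740 against 8202 to 10300. The sums did not overlap for fibroblasts (2150 to 2406 in CSS, 2724 to 3215 in CFS) and lymphatic endothelium (14.98 to 16.71, 23.07 to 26.87), both lower in CSS. Nor did they for T cells (1.199 to 2.762, 0.39 to 1.125), higher in CSS. No marker of these lists was called in CSS against CFS.

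In CCN2fl/fl mice, Ang II against saline (CFA with CFS) gave no call among the 9 genes by limma (background 0.0273%), and 2 had an unadjusted p under 0.05 (background 9.42%). Thbd differed by 0.40 on the log2 scale (adjusted p = 0.422, SE 0.15) and Procr by 0.94 (adjusted p = 0.475, SE 0.39), and in both every CFA mouse was above every CFS mouse (background 9.44%). Without CFS mouse 69, Procr differed by 0.46. The 9 log2 fold changes ran from 0.09 for Tfpi to 0.94 for Procr, and those of Serpine2, F3 and Tfpi2 changed sign with 1 mouse left out. The adjusted p of Thbd was 0.0456 with array weights, the 1 of 20 alternatives in which it lay under 0.05. Marker sums that did not overlap were lower in CFA for fibroblasts (1757 to 2186 FPKM, 2724 to 3215 in CFS). They were higher in CFA for monocytes (8.8 to 25.7, 3.2 to 5.6 in CFS) and macrophages (370.5 to 774.7, 306.7 to 363.3 in CFS). No marker of these lists was called in CFA against CFS.

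In CCN2SMCΔ mice, Ang II against saline (CSA with CSS) gave the values set out gene by gene above, with Plaur and Tfpi2 called up and Serpine2 and Thbd called down (background 20.3%, 10.9% up and 9.36% down). Here too, Tfpi2 was tested through the CSA libraries, so no conclusion is drawn from its call or the upward counts. Plau, Tfpi and F3 passed the adjusted p only. Without the fold limit, 4 of the 9 genes passed upward and 3 downward (background 46.2%, 22.3% up and 23.9% down). The groups did not overlap for 4 genes that were higher in CSA (background 26.3%) and 3 that were lower (background 29.1%). Plat and Procr passed neither, and the Procr difference was -0.08 (95% interval -0.94 to 0.78). This comparison and CSA against CFA share the CSA mice and are not independent of each other.

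The genotype effect under Ang II differed from that under saline for 3 of the 9 genes at both thresholds (background 15.2%, 7.89% up and 7.31% down), by a limma test of the interaction. The only upward call was Tfpi2, which entered the test through the CSA libraries, so no conclusion is drawn from that call or the upward counts. For Serpine2 the difference of the 2 log2 fold changes was -2.31 (adjusted p = 1.33e-04, SE 0.25), for Thbd -2.03 (adjusted p = 9.57e-05, SE 0.21) and for Tfpi2 3.38 (adjusted p = 0.00315, SE 0.65). The Serpine2 value combines a lower level in CSA with a higher level in CSS, which did not pass by itself (0.73, limma adjusted p = 0.339). That of Thbd came with a saline difference of 0.02. F3 (-1.25, adjusted p = 0.0356) and Tfpi (1.05, adjusted p = 0.0418) passed the adjusted p only, and did so in 9 of 19 and 8 of 19 alternatives at any fold. Without the fold limit, 2 of the 9 genes passed upward and 3 downward (background 26.4%, 12.8% up and 13.7% down). The F3 value was past the fold limit without CFS mouse 69 (-1.55) and with array weights (-1.66). For Plaur the difference was 0.91 (95% interval -0.11 to 1.93, adjusted p = 0.178), 1.33 without CFA mouse 72 (adjusted p = 0.0132) and 1.14 with array weights (adjusted p = 0.00982), the 2 of 19 alternatives in which it passed the adjusted p. That for Plau was 0.97 (adjusted p = 0.183) and passed in 0 of 19. Plat (-0.64, adjusted p = 0.132) passed the adjusted p in 3 of 19, and Procr was at -1.02 (95% interval -2.24 to 0.19).

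Several marker sums moved between CFA and CSA beside these genes. Smooth muscle markers summed to 799.8 to 959.3 FPKM in CSA and 5532 to 8420 in CFA. Macrophage markers summed to 2407 to 2714 and 370.5 to 774.7, monocyte markers to 273.3 to 331.4 and 8.8 to 25.7, and neutrophil markers to 529.6 to 581.1 and 11.2 to 28. Within CFA, mouse 72 had the highest macrophage and monocyte sums and the highest Plaur value, and Plau did not separate it from mouse 71. T cell markers summed to 19.9 to 26.3 FPKM in CSA and 0.67 to 2.4 in CFA, and B cell markers to 43.1 to 60 and 14.7 to 20.6. Fibroblast markers summed to 1142 to 1591 FPKM in CSA and 1757 to 2186 in CFA, and erythroid markers to 56 to 565.8 and 693.7 to 2321. The fibroblast list did not move as one: Gsn (log2 fold change -2.87), Clec3b (-3.28) and Dpep1 (-2.21) fell at both thresholds. At the adjusted p without the fold limit, 5 of the 8 fell and 1, Lum (1.44), was higher. The part of these cell types in the values of the 9 genes was not tested.

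**Figure D3:**
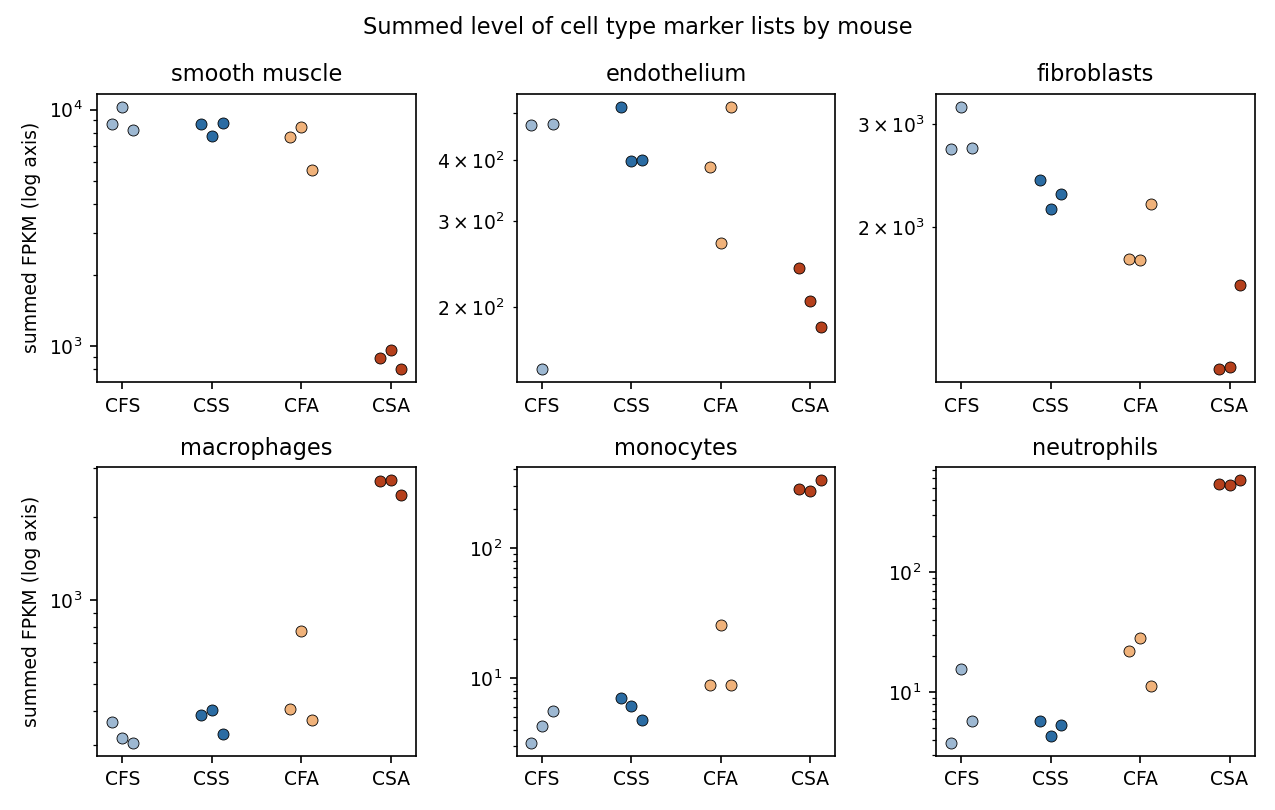
Summed FPKM of 6 lists of cell type markers in each of the 12 mice (points), on log axes that differ between panels. The CSA mice lie lowest for smooth muscle and highest for macrophages, monocytes and neutrophils, and CFS mouse 69, at 149.5 FPKM, is lowest for endothelium.

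Of 20 further genes of fibrinolysis, 12 were tested, and in CSA against CFA 2 were called up and 2 down, with a median log2 fold change of 0.43 (background 8.95% up and 8.27% down). Kng1 encodes kininogen, a cofactor of the contact system. Its mean was 0.232 ± 0.34 FPKM in CFA and 9.91 ± 5.25 in CSA (SD of 3 mice, log2 fold change 5.29). Serpinb2, plasminogen activator inhibitor 2, had 0.147 ± 0.205 and 2.37 ± 0.682 (log2 fold change 3.61). Both entered the test only through the CSA libraries, where they were high, so no conclusion is drawn from their calls or the upward count. Leaving out any 1 CSA mouse removed them from the test. Cpb1, a carboxypeptidase of the pancreas related to the plasma enzyme that protects fibrin, fell by 2.55, and Serpini1, neuroserpin, an inhibitor of tissue plasminogen activator, by 1.56 on the log2 scale. Without CFA mouse 72, or without CSA mouse 01, 1 of the list was called down.

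Plg, plasminogen itself, had a mean of at most 0.199 FPKM in any group and was listed at 0 in the 3 CSA mice.

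Of 32 further genes of coagulation, 15 were tested, with 1 called up, 3 called down and a median log2 fold change of -0.09 (background 8.95% up and 8.27% down). F10, coagulation factor X, had 0.782 ± 0.175 FPKM in CFA and 5.33 ± 1.3 in CSA (SD of 3 mice, log2 fold change 2.61). It was also tested only through the CSA libraries, so no conclusion is drawn from its call or the upward count. Without CFA mouse 72 or 74, 2 of the list were called up. Vwf, the endothelial protein that binds platelets, stood at 61.2, 39.1 and 93.2 FPKM in CFA and 16.7, 10.9 and 8.93 in CSA. The Vwf log2 fold change was -2.36 (limma adjusted p = 0.0051, SE 0.54). F2rl1, a protease-activated receptor, fell by 1.79 and Tgm2, a transglutaminase of the matrix, by 1.52 on the log2 scale. F5, factor V, was higher at the adjusted p only (1.47) and was likewise tested only through the CSA libraries. The fibrinogen genes Fga, Fgb and Fgg had means of at most 0.557 FPKM and were not tested. In CSS against CFS no gene of either list was called by limma.

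**Figure D4:**
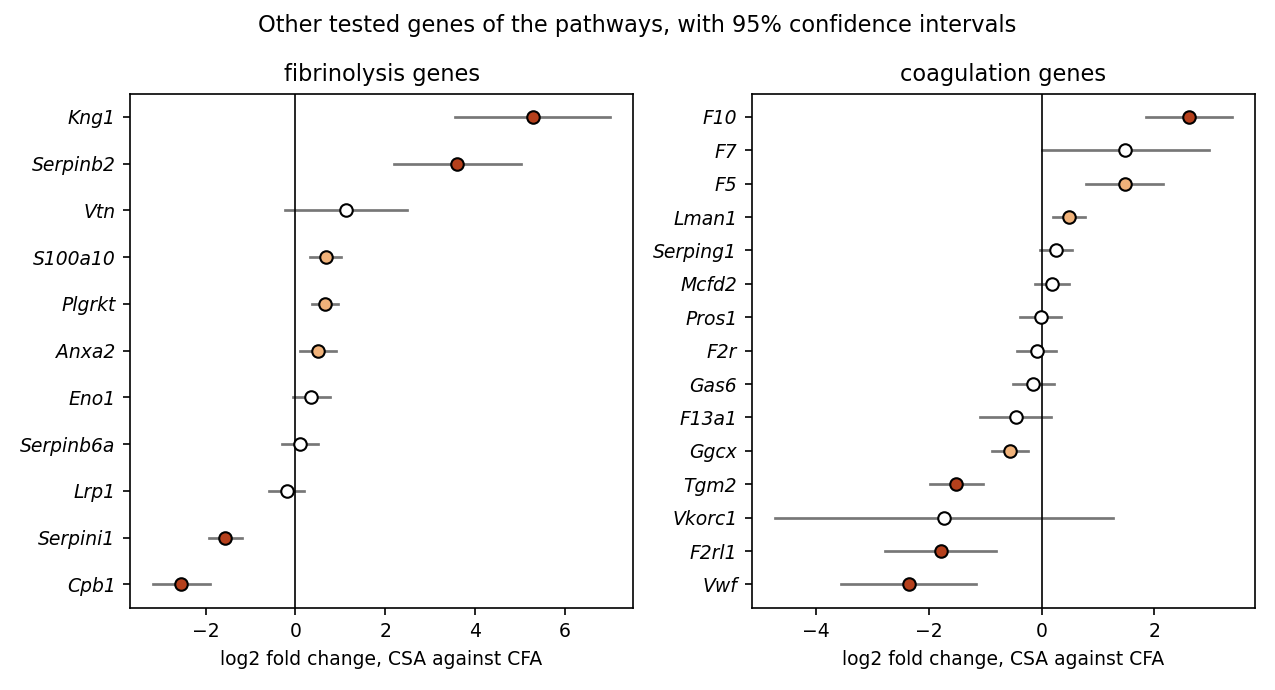
Log2 fold change in CSA against CFA (points) with 95% confidence intervals from limma (lines) for the tested genes of fibrinolysis (all but 1 of the 12) and of coagulation (15) that are not among the 9; fills are as in the plot of genotype effects. Kng1 and Serpinb2 lead one list and F10 the other, all of them tested only through the CSA libraries. Cpb1, Serpini1, Vwf, F2rl1 and Tgm2 are the dark points at the lower end.

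The 9 genes did not share a single pattern over the 12 libraries. All pairs share these libraries and with them the separation of CSA from the other mice, so correlations are given as a description. Pearson's r of log2(FPKM + 0.1) was 0.88 for Serpine2 with F3, 0.85 for Serpine2 with Thbd, 0.84 for Plau with Plaur, and -0.91 for Thbd with Tfpi2. Plau with Plat was at -0.005 and Thbd with Procr at 0.23. Among 7749 other genes (7750 for Tfpi2) with a mean of at least 5 FPKM, those most like each gene, 2 for each but F3, were Rgs5 (r = 0.988) and Fzd7 (0.985) for Serpine2, Bace2 (0.984) and Gm45670 (0.982) for Thbd, Clic1 (0.964) and Vav2 (0.963) for Plaur, and Glipr2 (0.947) and Incenp (0.943) for Plau. For Tfpi they were Krcc1 (0.975) and 4921524J17Rik (0.973), for Tfpi2 Rpsa (0.978) and Rpl12 (0.974), for Procr Krt18 (0.933) and Fbh1 (0.906), for F3 Cdyl (0.921), and for Plat Prrc1 (0.921) and Sfrp2 (0.917).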

How the data were processed

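RNA-Seq was analysed from 12 mouse abdominal aortas, 4 groups of 3, with group and mouse number taken from the labels. The labels name no batch. The authors deposited FPKM per gene and mouse, without pooling, and the submitters' processing notes name HISAT2 2.0.5, StringTie 1.3.3b, featureCounts 1.5.0-p3 and build mm10. Differential expression in the paper came from DEG-Seq, which was not run here. The values carry a scaling between libraries, with equal median log ratios. GENCODE M21 (GRCm38) gave symbols for 54409 of 54532 Ensembl identifiers and exon lengths, with which 97.8% to 98.4% of values under 100 fragments came within 0.02 of whole fragments. No exon base of the 9 genes is shared with another annotated gene.

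log2(FPKM + 0.1) was modelled with limma 3.58.1 in R 4.3.3 (trend and robust settings, 1 coefficient per group, no covariate) over 14676 genes that reached 1 FPKM in 3 or more libraries. The pseudocount understates changes of low genes. Benjamini-Hochberg adjustment ran over all tested genes, comparison by comparison. The thresholds for a call, 0.05 for the adjusted p and 1.5 for the size of the log2 fold change, are those of the study. The fit was tested on simulated data. Members, gene lists, named genes (the 9 genes, the 4 largest called changes of each list, Plg and Vwf whatever their values, and the 2 most similar genes) and tests were chosen with earlier results of these data known. Genes named outside that rule were chosen after their values were seen. Some genes that the rule takes in are not reported here. Alternatives changed the pseudocount, filter, scaling, variance settings, weights, groups fitted and thresholds, or left out each mouse. Figures used Python 3.11.15 and matplotlib 3.10.9.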

Additional observations from a re-analysis of the deposited data

Results flagged for a closer look

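The genotype effect under Ang II and the genotype effect under saline differed by the interaction test of limma for 3 genes. The difference, the first minus the second on the log2 scale, was -2.31 for Serpine2, -2.03 for Thbd and 3.38 for Tfpi2. Under saline the Serpine2 value was 0.73, the Thbd value 0.02 and the Tfpi2 value -0.35, and under Ang II they were -1.57, -2.01 and 3.03. The 3 interaction values passed both thresholds in all alternatives that gave a value, 19 each for Serpine2 and Thbd and 18 for Tfpi2. Tfpi2 entered the test through the CSA libraries, where it was high, so no conclusion is drawn from its call. With a mean FPKM of at least 5 it was not tested.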

How the results depend on the processing

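No paired analysis was possible because the mouse numbers differ between groups. Of 886 values of the 9 genes over the 5 comparisons under the alternatives, 858 kept their direction and their status as called or not called at both thresholds together, 9 lost and 6 gained a call, and 13 changed sign, none of these 13 called in either form. Genes short of the fold limit could cross the adjusted p alone within the 858: in CSA against CFA it lay under 0.05 in 6 of 20 alternatives for Plau, 6 of 20 for Plat, 17 of 20 for F3 and 9 of 20 for Tfpi. The cause was not tested. In CSA against CFA, 2 genes were called up and 2 down. The upward count includes Tfpi2, which was tested through the CSA libraries, so no conclusion is drawn from that count. Upward calls were 1 with a mean FPKM of at least 5, where Tfpi2 was not tested, 1 to 2 with a mouse left out and 3 without the fold limit. Downward calls were 1 when scaled to recovered fragment totals (an alternative added after seeing the data, which shifted the median log2 fold change of this comparison by 0.15), 1 to 2 with a mouse left out, and 4 without the fold limit. In CSA against CSS, upward calls were 1 with a pseudocount of 1, 1 with a mean FPKM of at least 5, 1 to 3 with a mouse left out, 3 with array weights, 3 with fragment totals and 4 without the fold limit, and downward calls were 1 with fragment totals and 3 without the fold limit. For the interaction, upward calls were 0 with a mean FPKM of at least 5 and 2 without the fold limit, and the 2 downward calls were 2 to 3 with a mouse left out, 3 with array weights and 3 without the fold limit. Of the fibrinolysis list, the 2 upward calls became 0 with a mean FPKM of at least 5, 0 to 2 with a mouse left out and 5 without the fold limit, and the 2 downward calls became 0 with a pseudocount of 1, 1 with a mean FPKM of at least 5, 1 with fragment totals and 1 to 2 with a mouse left out. Of the coagulation list, the 1 upward call became 2 without a filter, 0 with a mean FPKM of at least 5, 2 with array weights, 2 with fragment totals, 0 to 2 with a mouse left out and 3 without the fold limit, and the 3 downward calls became 1 with a pseudocount of 1, 5 without a filter, 2 each with array weights, a mean FPKM of at least 5 and fragment totals, 2 to 3 with a mouse left out and 4 without the fold limit. With a CSA mouse left out, genes above the filter in CSA alone were no longer tested. The sign changed for Procr in CSA against CSS (0.32 with array weights, 0.10 with fragment totals, and -0.33 to 0.30 with a mouse left out), and with a mouse left out for Plau (-0.29 to 0.16) and Thbd (-0.0605 to 0.0982) in CSS against CFS and for Serpine2 (-0.0084 to 0.33), F3 (-0.10 to 0.44) and Tfpi2 (-0.11 to 0.63) in CFA against CFS. Depth limits Tfpi2 most, with 11 fragments in the lowest library, and with 3 mice per group smaller differences may be missed.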
